A study of Rattus norvegicus with 6 samples.

Results

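Connexins and pannexins are the channel proteins through which vascular smooth muscle cells (VSMCs) exchange ions and small molecules with each other and release ATP. Members were all genes of the deposited table whose symbol begins with Gja, Gjb, Gjc, Gjd or Panx followed by a number. This gave 9 of the 13526 genes, 8 connexin genes, among them Gja1, Gja4, Gja5, Gjb2, Gjb5, Gjc1 and Gjc3, and the pannexin gene Panx1. RNA was sequenced from 3 samples of primary rat VSMCs in osteogenic media with 1 μM empagliflozin (OM plus EMPA group) and from 3 samples in osteogenic media alone (OM group). Empagliflozin inhibits the sodium-glucose cotransporter SGLT2. Both groups came from wild type thoracic aorta and were kept in medium with 10 mM β-glycerophosphate and 3.5 mM CaCl2 for 5 days according to the sample labels. The cells were passaged cultures of the aortic media of male rats, from which adventitia and intima had been stripped. The paper gives a shorter time in OM than the labels do. Cells without osteogenic media were not analysed here, and no source used here says that the samples are separate cultures or animals. The p-values therefore reflect the spread among these samples, which may be technical. Sample titles write the medium as Pi, while the protocol describes it as OM.

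A gap junction forms when a hemichannel of connexin subunits in 1 cell docks with a hemichannel of its neighbour. The alpha, beta and gamma connexins differ in sequence, and channels made of different connexins differ in conductance and in what they let through. In the arterial wall Gja1 (connexin 43) is the widespread connexin of cultured smooth muscle, Gja4 (connexin 37) and Gja5 (connexin 40) are best known from endothelium, and Gjc1 (connexin 45) is found in smooth muscle. Pannexins resemble connexins in membrane topology but mostly work as single-membrane channels for ATP.

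The deposited values are TPM, in which the reads of a gene are corrected for transcript length and scaled to a fixed library total, so levels of different genes can be set beside each other. The libraries summed to 997954 to 998293 TPM, and the read depth behind a value is unknown. The test was limma on log2(TPM + 1) for the 12564 genes that averaged 1 TPM or more, and a gene was called where the adjusted p did not exceed 0.05. At this threshold 2.06% of all tested genes were called higher and 4.86% lower in the OM plus EMPA group, which is the background for every count below. On this scale the change of genes with low TPM is understated. Gja1 and Gjb2 were selected on their TPM in these same 6 samples, a level that was similar in both groups for Gja1 and higher with empagliflozin for Gjb2, so their differences are given as a description with no test. In RNA from whole cultures, fewer cells of a type and less RNA per cell cannot be told apart.

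The start regions of 3 members are shown because Gjb2 and Gja4 had the largest differences of the family, in opposite directions, and Gja1 was its most abundant transcript. Each window runs 5′ to 3′ on the gene's strand from 250 bases before to 50 bases after a transcript start of RefSeq (build GRCr8), and the Gjb2 and Gja1 starts used lie inside the annotated gene. The Gja1 window is chr20:36302314-36302613 on the plus strand, the Gja4 window chr5:144920275-144920574 on the minus strand and the Gjb2 window chr15:35381904-35382203 on the minus strand. Capitals mark the GC box GGGCGG, the TATA box TATAAA, the TTAAAA box and the AP-1 site TGANTCA, searched on both strands.
Gjb2: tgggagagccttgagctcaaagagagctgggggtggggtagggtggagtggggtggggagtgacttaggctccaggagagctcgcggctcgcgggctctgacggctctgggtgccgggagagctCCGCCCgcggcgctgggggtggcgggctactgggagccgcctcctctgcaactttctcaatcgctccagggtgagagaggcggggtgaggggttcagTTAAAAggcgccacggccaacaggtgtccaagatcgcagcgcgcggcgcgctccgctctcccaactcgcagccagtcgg
Gja4: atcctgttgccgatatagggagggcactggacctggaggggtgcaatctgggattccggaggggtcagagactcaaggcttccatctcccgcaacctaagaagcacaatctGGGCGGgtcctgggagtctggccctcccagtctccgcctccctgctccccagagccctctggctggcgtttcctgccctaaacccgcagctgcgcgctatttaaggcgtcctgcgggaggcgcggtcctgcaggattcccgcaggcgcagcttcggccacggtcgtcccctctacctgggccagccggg
Gja1: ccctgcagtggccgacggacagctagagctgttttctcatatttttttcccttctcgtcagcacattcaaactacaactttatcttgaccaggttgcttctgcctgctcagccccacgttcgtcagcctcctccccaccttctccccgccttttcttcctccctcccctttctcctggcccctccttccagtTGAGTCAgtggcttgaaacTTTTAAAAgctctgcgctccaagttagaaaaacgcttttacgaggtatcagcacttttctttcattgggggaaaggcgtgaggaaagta
The Gjb2 window held 1 GC box (bases 125 to 130, reverse strand) and 1 TTAAAA box (bases 222 to 227). The Gja4 window held 1 GC box (bases 112 to 117) and no match to the other motifs. The Gja1 window held 1 AP-1 site (bases 193 to 199) and 2 overlapping TTAAAA boxes, 1 on each strand (bases 212 to 219). Of 33469 RefSeq windows of this length, 33.1% held the GC box, 21% the TTAAAA box, 14.2% the TATA box and 7.3% the AP-1 site. RefSeq windows were matched for 6 of the 9 members by symbol, and Gjb5 and Gjc1 were among those not matched. These matches are a description of letters and not of bound sites.

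Gja1, which encodes connexin 43, was by far the most abundant member and hardly differed between the groups. It was at 390.7, 382.1 and 398.5 TPM in the OM plus EMPA libraries, against 385.8, 396.6 and 403.8 TPM in the OM libraries. The groups overlapped, and the spread within a group was small, with a coefficient of variation of 2.09% in the OM plus EMPA group and 2.29% in the OM group. Gja1 ranked 381 of 13526 genes by mean TPM. The difference was -0.02 on the log2 scale (SE 0.04). It was 0.04 with median-ratio scaling of the libraries and 0.012 with TPM rescaled without mitochondrial genes, so its sign depends on the scaling. In the authors' table the gene lies on chromosome 20 from 35755991 to 35768582 (genome build not given in the sources used here), and it was the only member listed in the KEGG gap junction pathway.

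Gjb2, which encodes connexin 26, a connexin of epithelia, cochlea and liver, was higher in each library with empagliflozin. Its level was 30.5, 28 and 26 TPM in the OM plus EMPA group, against 13.7, 12.5 and 11 TPM in the OM group. The lowest value with empagliflozin was above the highest without it, as for 7.85% of all tested genes. Gjb2 averaged 28.2 ± 2.29 TPM with empagliflozin and 12.4 ± 1.35 TPM in OM alone (SD, n = 3 each), a ratio of 2.26, and the difference was 1.12 on the log2 scale (SE 0.09). Of the 12564 tested genes, 20 had a larger positive difference, a rank that rests on the same values that singled out Gjb2. The gene lies on chromosome 15 from 31260357 to 31278177 in the authors' table.

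**Figure D1:**
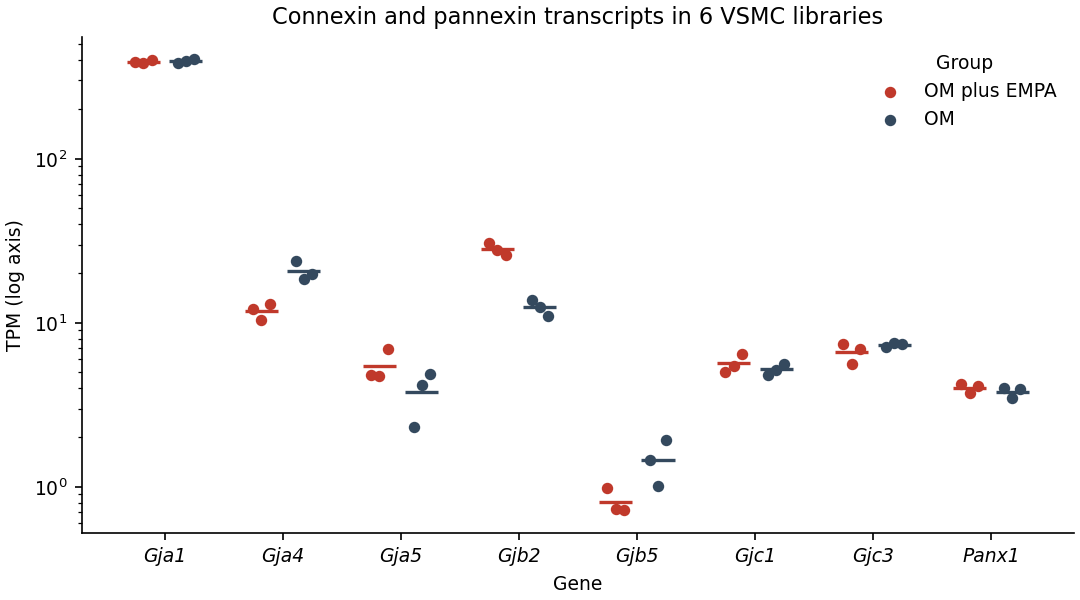
TPM of 8 members on a log axis in the 3 OM plus EMPA libraries (red) and the 3 OM libraries (dark blue), with points for libraries in replicate order and bars for group means. Gja1 lies near 390 TPM in both groups, Gjb2 is higher in each OM plus EMPA library (mean 28.2 TPM, against 12.4 TPM in OM), and Gja4 is lower in each (mean 11.9 TPM, against 20.8 TPM in OM).

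Gja4, which encodes connexin 37, fell with empagliflozin. It was at 12.1, 10.4 and 13 TPM in the OM plus EMPA libraries, against 23.8, 18.6 and 19.9 TPM in the OM libraries. The groups did not overlap, and all values were lower with empagliflozin, as for 22.5% of all tested genes (30.4% did not overlap in either direction). Gja4 averaged 11.9 ± 1.33 TPM with empagliflozin and 20.8 ± 2.73 TPM in OM alone (SD, n = 3 each). The log2 fold change was -0.76 (SE 0.11, 95% interval -1.01 to -0.5, adjusted p = 0.00994 from limma). The call held when any 1 library was left out (adjusted p = 0.0162 to 0.0347 from limma) and under the other settings tried (adjusted p = 0.0043 to 0.0121 from limma). Of the 7 members besides Gja1 and Gjb2, all of them tested, Gja4 was the only 1 called, which is 14.3% of the 7 against the 4.86% of all tested genes called lower, and 0 were called higher. At an unadjusted p under 0.05 the 7 gave 3 lower, Gja4 and Gjb5 among them, and 0 higher genes, against 2217 lower and 807 higher of the 12564 tested.

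In the authors' table Gja4 lies on chromosome 5 from 139633287 to 139635925 on the minus strand.

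Gjb5, a beta connexin known from skin and placenta, had the lowest level of the family. It was at 0.99, 0.73 and 0.72 TPM in the OM plus EMPA libraries, against 1.45, 1.01 and 1.92 TPM in the OM libraries. The groups did not overlap, but the gap between the highest OM plus EMPA value and the lowest OM value was narrow. The log2 fold change of -0.43 (SE 0.17, 95% interval -0.83 to -0.03) did not pass the test over all genes (adjusted p = 0.185 from limma).

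Gja5, which encodes connexin 40 of endothelium and atrial muscle, was the most variable member. It was at 4.79, 4.72 and 6.9 TPM in the OM plus EMPA libraries, against 2.32, 4.15 and 4.87 TPM in the OM libraries. OM replicate 1 was low and OM plus EMPA replicate 3 was high, and the groups overlapped. The coefficient of variation was 22.6% in the OM plus EMPA group and 34.8% in the OM group, and the log2 fold change of 0.46 (SE 0.23, 95% interval -0.06 to 0.98) did not pass the test (adjusted p = 0.261 from limma). Without OM replicate 1 it was 0.22 (adjusted p = 0.517 from limma). The interval includes 0 and also a change larger than that of Gja4 in size.

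The gamma connexins and Panx1 had similar levels in both groups. Gjc1, which encodes connexin 45, was at 4.99, 5.49 and 6.5 TPM in the OM plus EMPA libraries, against 4.81, 5.19 and 5.64 TPM in the OM libraries. Its log2 fold change was 0.10 (SE 0.11, 95% interval -0.16 to 0.35, adjusted p = 0.641 from limma). Gjc3, which encodes connexin 29 of myelinating glia in rodents, was at 7.42, 5.6 and 6.94 TPM in the OM plus EMPA libraries, against 7.11, 7.55 and 7.39 TPM in the OM libraries. The low value of OM plus EMPA replicate 2 widened the spread, and the log2 fold change was -0.13 (SE 0.11, 95% interval -0.38 to 0.11, adjusted p = 0.486 from limma). The listed Gjc3 gene spans 67434 bases with 6 transcripts, the widest span of the family, and the share of each transcript in its TPM is not known.

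Panx1, the ATP-release channel of many cell types, was at 4.21, 3.73 and 4.1 TPM in the OM plus EMPA libraries, against 3.98, 3.48 and 3.97 TPM in the OM libraries. Its log2 fold change was 0.06 (SE 0.1, 95% interval -0.17 to 0.29, adjusted p = 0.751 from limma). The listed positions of these genes were chromosome 2 from 184564475 to 184621952 for Gja5, chromosome 10 from 87760528 to 87785867 for Gjc1, chromosome 12 from 16896813 to 16964246 for Gjc3 and chromosome 8 from 11850730 to 11889774 for Panx1. All 9 members carried the GO terms gap junction and gap junction channel activity, and none of the 9 overlapped another listed gene.

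**Figure D2:**
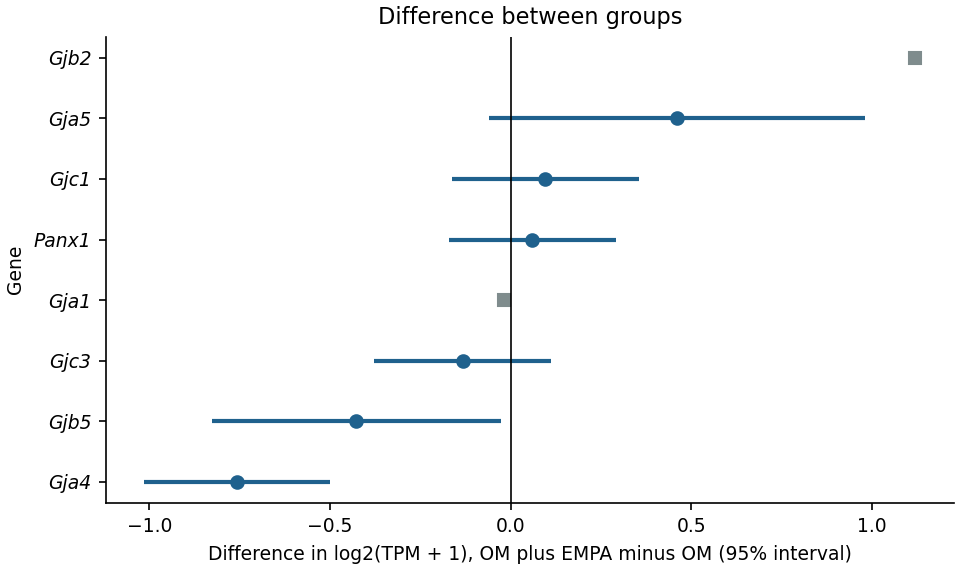
Difference between the OM plus EMPA and OM groups in log2(TPM + 1) for 8 members. Grey squares are Gja1 and Gjb2, described without a test or interval, and blue circles are 6 other members with their unadjusted 95% interval from limma, of which only Gja4 (-0.76) was called at an adjusted p of 0.05, while the intervals of Gja5, Gjc1, Panx1 and Gjc3 include 0.

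The rank order of the members described above followed from these levels. In the OM plus EMPA group the order was Gja1, Gjb2, Gja4, Gjc3, Gjc1, Gja5, Panx1 and Gjb5. In the OM group it was Gja1, Gja4, Gjb2, Gjc3, Gjc1, Panx1, Gja5 and Gjb5. Gjb2 and Gja4 changed places, with separate values in every library of either group. In the OM plus EMPA group the libraries of Gjc3 and Gjc1 overlapped, as did those of Gjc1 and Gja5, and in the OM group those of Panx1 and Gja5 overlapped. All other neighbours in these orders were separated in all libraries.

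The summed connexin level, most of it Gja1, hardly differed while its make-up did. The 8 connexins summed to 453.1, 438.6 and 459.8 TPM in the OM plus EMPA libraries, against 441.2, 448.3 and 456.9 TPM in the OM libraries. Gja1 was 86.7 ± 0.455% of this sum with empagliflozin, against 88.1 ± 0.563% in OM alone (SD, n = 3 each). Gjb2 was 6.25 ± 0.557% with empagliflozin, against 2.77 ± 0.349% in OM alone (SD, n = 3 each). The Gjb2 level was 7.82, 7.32 and 6.51% of the Gja1 level in the OM plus EMPA libraries, against 3.56, 3.16 and 2.73% in the OM libraries. The sum and these shares rest on the values that singled out Gja1 and Gjb2 and are a description only. Gja1 was selected for a similar level in both groups, and this largely fixes the similar sum.

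Without Gja1 the sum was higher in each library with empagliflozin. The 7 other connexins, Gjb2 among them, summed to 62.4, 56.4 and 61.3 TPM in the OM plus EMPA libraries, against 55.3, 51.7 and 53.1 TPM in the OM libraries. Gjb2 made up 46.9 ± 3.98% of this sum with empagliflozin, against 23.3 ± 2.17% in OM alone (SD, n = 3 each). Gja4 made up 19.7 ± 1.43% with empagliflozin, against 38.8 ± 3.73% in OM alone (SD, n = 3 each). The ratio of Gjb2 to Gja4 was 2.51, 2.69 and 1.99 in the OM plus EMPA libraries, against 0.577, 0.673 and 0.556 in the OM libraries. Gjb2 enters the ratio and the sum of the 7, so the Gja4 share falls in part because Gjb2 is higher. These shares and the ratio are a description only. The gamma connexins Gjc1 and Gjc3 summed to 12.3 ± 1.18 TPM with empagliflozin, against 12.6 ± 0.576 TPM in OM alone (SD, n = 3 each).

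**Figure D3:**
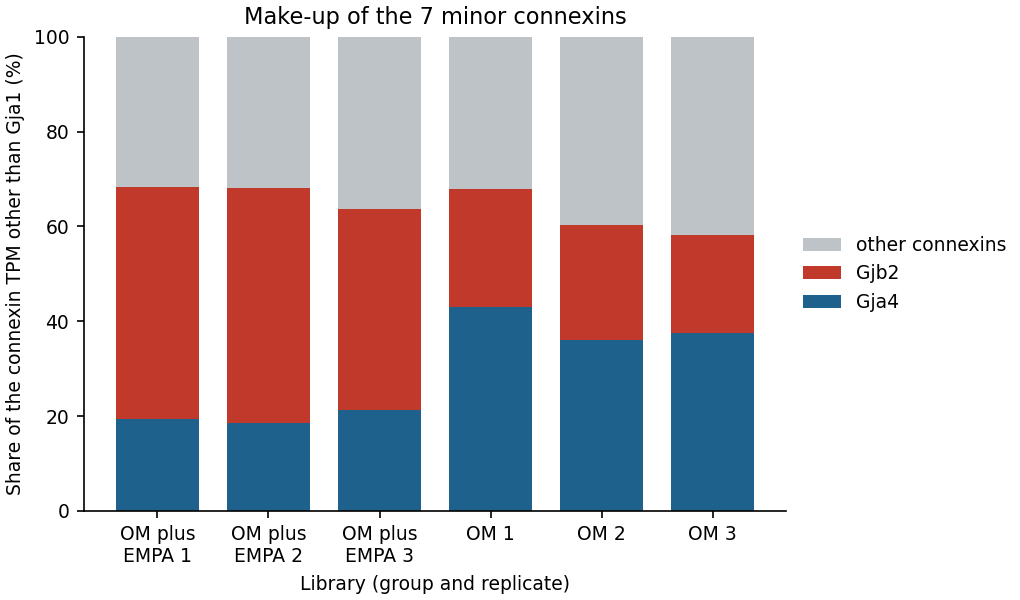
Share of Gja4, Gjb2 and the other connexins (grey) in the summed TPM of the 7 connexins other than Gja1, in percent, for each library. Gjb2 (red) takes 42.4 to 49.6% with empagliflozin, against 20.8 to 24.8% in OM alone, and Gja4 (blue) takes 18.4 to 21.3% with empagliflozin, against 36 to 43% in the OM libraries. Gjb2 was selected on these values, so the shares are a description only.

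The genes with the profile most like that of Gjb2 were sought among 11152 other tested genes with a symbol, by the root mean square distance between log2(TPM + 1) profiles over the 6 libraries, each centred on its mean. The 5 nearest were Duox1 (distance 0.13), an NADPH oxidase that makes hydrogen peroxide, F3 (0.13), which encodes tissue factor, Sorbs2 (0.15), an actin-associated adaptor, Kcne4 (0.16), a potassium channel subunit, and Col14a1 (0.18), a collagen of the fibril surface. Col14a1 was at 115 ± 12 TPM with empagliflozin, against 60.7 ± 9.35 TPM in OM alone (SD, n = 3 each). Each of the 5 had a positive difference between 0.91 and 1.18, which the choice by likeness to Gjb2 fixes. For Gja1 the 5 nearest were Trpm7, Tgoln2, Dock5, Wls and Ranbp9, at distances of 0.0075 to 0.014, with differences of -0.03 to -0.01.

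The smooth muscle identity of the cultures and the markers of other cell types were examined beside these values. Of 6 tested smooth muscle markers 4 rose and 0 fell. Tagln, Acta2, Cnn1 and Lmod1 rose, and the summed level of the 7 markers with values was 2478 to 2925 TPM with empagliflozin, against 1756 to 2158 TPM in OM alone. Tagln was the largest part of this sum, at a mean of 2052 TPM with empagliflozin, against 1528 TPM in OM alone. Each of the 4 calls was lost without OM plus EMPA replicate 2 (adjusted p = 0.0628 to 0.0871 from limma). Cnn1 lost its call in no other such fit, while Lmod1 also lost it without OM plus EMPA replicate 1 or either of OM replicates 1 and 3, Acta2 without OM plus EMPA replicate 3 or those OM replicates, and Tagln whichever library was left out except OM replicate 2 (up to 0.0989 for Tagln). Myh11, the smooth muscle myosin heavy chain, was at 15.8 ± 2.36 TPM with empagliflozin, against 17.9 ± 2.55 TPM in OM alone (SD, n = 3 each), and was not called. Myocd, a coactivator of smooth muscle genes, was under 1 TPM in every library, and Des was not found by symbol among the listed genes. Of the 8 endothelial markers only Erg was found by symbol among the 13526 listed genes, of which 11889 carry a symbol. Erg was at 2.79 to 3.89 TPM with empagliflozin, against 1.7 to 3.89 TPM in OM alone. Gja4 and Gja5 are thus set beside a single endothelial marker. Of the 8 epithelial markers only Krt8 was found by symbol, at 3.01 to 3.88 TPM with empagliflozin, against 2.69 to 3.63 TPM in OM alone. The glial marker Mbp was at 30 to 30.8 TPM with empagliflozin, against 27.1 to 33.3 TPM in OM alone. Of 8 leukocyte markers only Cd68 was found by symbol, and it fell, at 5.1 to 9.52 TPM with empagliflozin, against 12.8 to 14.9 TPM in OM alone. The Cd68 call was lost without OM plus EMPA replicate 3 and without any of the 3 OM libraries (adjusted p = 0.0711 to 0.114 from limma). Of 4 tested fibroblast markers Dcn and Pdgfra fell and 0 rose, and the 5 fibroblast markers summed to 4637 to 5409 TPM with empagliflozin, against 6093 to 6937 TPM in OM alone. Dcn lost its call whichever library was left out except OM plus EMPA replicate 3 (adjusted p = 0.0627 to 0.124 from limma), with median-ratio scaling (0.0741), without mitochondrial genes (0.0534) and with no filter (0.0529), and Pdgfra whichever library was left out. Dcn was the largest part of the fibroblast sum, at a mean of 4113 TPM with empagliflozin, against 5401 TPM in OM alone. Pi16 went the other way (mean 4.76 TPM with empagliflozin, against 3.86 TPM in OM alone) and was not called. The fibroblast sum was above the smooth muscle sum in every library. Sums over different genes do not give the share of a cell type. The part of the smooth muscle, leukocyte and fibroblast markers in the connexin values was not tested. Transcripts of the 13 protein-coding mitochondrial genes took 9.97 to 10.6% of TPM with empagliflozin, against 7.47 to 9.25% in OM alone. With TPM rescaled without these genes the log2 difference was 0.012 for Gja1 and 1.15 for Gjb2. For Gja4 it was -0.73 (adjusted p = 0.00997 from limma). Any other part of these genes in the connexin values was not tested.

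Genes that act with the channels were taken from 5 lists, which held 110 different tested genes. Of these 1 rose and 10 fell, against 259 higher and 611 lower of all 12564 tested genes. The KEGG list below held 6 of the 10. Among 14 tested scaffold and adherens junction genes 1 rose and 1 fell, with a median log2 fold change of -0.03 against -0.05 over all tested genes. Ccn3, which encodes a secreted matricellular protein that binds the tail of connexin 43, was at 2943, 2522 and 2512 TPM in the OM plus EMPA libraries, against 1955, 1829 and 1732 TPM in the OM libraries. All 3 values with empagliflozin were above those without it, and Ccn3 rose, with a log2 fold change of 0.53 (SE 0.08, adjusted p = 0.0101 from limma). Ctnnb1, which encodes β-catenin of adherens junctions, was at 226 ± 5.19 TPM with empagliflozin, against 265 ± 11.5 TPM in OM alone (SD, n = 3 each), and its log2 fold change was -0.23 (SE 0.05, adjusted p = 0.0265 from limma). Tjp1, which encodes the connexin 43 scaffold ZO-1 and is named here after its value was seen, was at a mean of 51 TPM with empagliflozin, against 52.8 TPM without it (log2 fold change -0.05, adjusted p = 0.616 from limma).

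Among 14 tested genes of connexin trafficking and turnover 1 fell and 0 rose, with a median log2 fold change of -0.09. At an unadjusted p under 0.05, 4 were lower and 0 higher, while all 12564 tested genes gave 2217 lower and 807 higher. Tsg101, a sorting factor that takes part in connexin degradation, was at 90.6 ± 0.716 TPM with empagliflozin, against 108 ± 3.67 TPM in OM alone (SD, n = 3 each), and its log2 fold change was -0.25 (SE 0.04, adjusted p = 0.0141 from limma). Among 15 tested kinases that phosphorylate connexins or act upstream of such kinases, 1 fell and 0 rose (unadjusted, 3 lower and 0 higher), with a median of 0.00. Prkcd, a protein kinase C isoform, was the gene called, with a log2 fold change of -0.21 (SE 0.05, adjusted p = 0.0356 from limma). The share called lower was 7.14%, 7.14% and 6.67% in the scaffold, trafficking and kinase lists, near the 4.86% of all tested genes.

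Among 24 tested genes of ATP release, purinergic receptors and nucleotide breakdown 1 fell and 0 rose, with a median log2 fold change of -0.05. The share called lower was 4.17%, against 4.86% of all tested genes. Unadjusted, 6 were lower and 3 higher, against 2217 lower and 807 higher of all 12564 tested genes. The ATP-gated channel P2rx4, named after its value was seen, was at a mean of 106 TPM with empagliflozin, against 107 TPM without it (log2 fold change -0.01, adjusted p = 0.968 from limma).

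The KEGG gap junction pathway of the authors' table, without the connexins, held 59 genes, of which 53 were tested and 10 also stand in the other lists. Of the 53, 6 fell and 0 rose, a share called lower of 11.3% against 4.86% of all tested genes. At an unadjusted p under 0.05, 9 were lower and 2 higher, against 2217 lower and 807 higher of all 12564 tested genes. The median log2 fold change was -0.01, against -0.05 over all tested genes. Htr2a, a serotonin receptor, was at 48.7, 37.1 and 39.1 TPM in the OM plus EMPA libraries, against 63.9, 57.7 and 60 TPM in the OM libraries. Its log2 fold change was -0.54 (SE 0.1, adjusted p = 0.0201 from limma). Also called were Adcy7, an adenylate cyclase (-0.25), the growth factor receptors Egfr (-0.36) and Pdgfra (-0.35), the adaptor Grb2 (-0.25) and the kinase Map2k1 (-0.21).

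Of the 11 called genes in these lists, 2 kept the call when any 1 library was left out, Ccn3 (adjusted p = 0.0431 at most from limma) among them. The other 9 lost it in at least 1 such fit. Prkcd, Egfr and Pdgfra lost it whichever library was left out, with adjusted p up to 0.104, 0.112 and 0.151 from limma. Ctnnb1 and Map2k1 lost it whichever library was left out, except OM replicate 2 (up to 0.0912 and 0.116 from limma), and Grb2 likewise except for OM plus EMPA replicate 2 (up to 0.101). Tsg101 lost it without replicates 1 or 2 of OM plus EMPA or replicate 3 of OM (up to 0.0547 from limma), Htr2a without replicates 2 or 3 of OM plus EMPA or 1 or 3 of OM (up to 0.0712) and Adcy7 without replicates 1 or 2 of OM plus EMPA or 1 or 3 of OM (up to 0.089). With median-ratio scaling of the libraries Ctnnb1, Prkcd, Adcy7, Egfr, Grb2, Map2k1 and Pdgfra were no longer called (adjusted p = 0.0566 to 0.121 from limma). Without mitochondrial genes Prkcd, Egfr, Grb2, Map2k1 and Pdgfra lost the call (adjusted p = 0.0534 to 0.0718 from limma). Pdgfra also lost it with no filter (adjusted p = 0.0527 from limma).

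**Figure D4:**
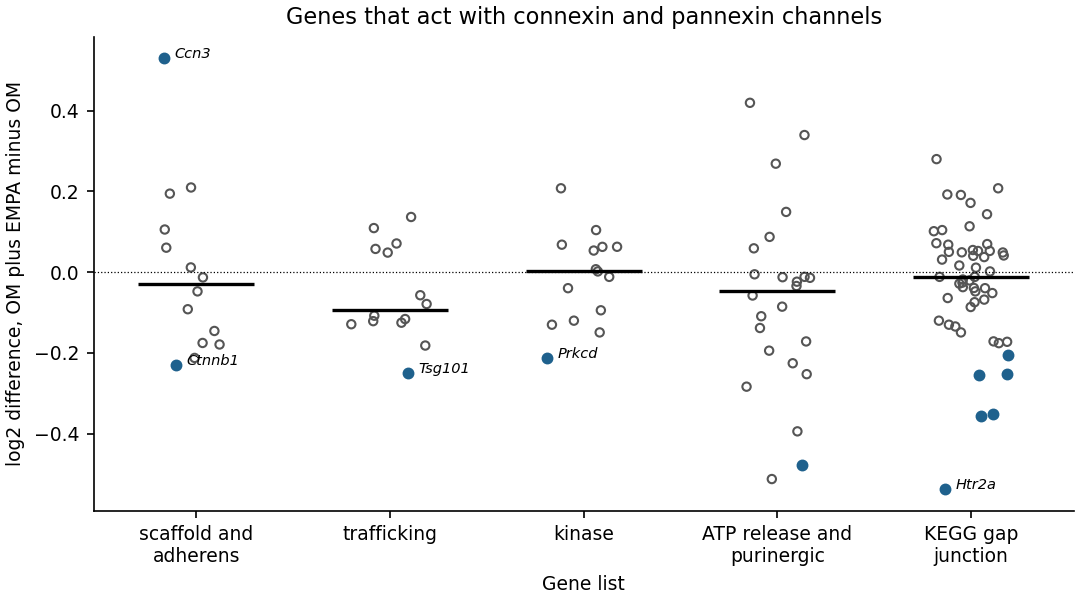
Log2 difference between the OM plus EMPA and OM groups for the tested genes of 5 lists. Genes called by limma at 0.05 are filled, the others are open, and black bars mark list medians. Ccn3 at 0.53 is the only filled point above 0, and the medians lie between -0.09 and 0.00.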

How the data were processed

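Both groups of 3 rat VSMC samples were measured by RNA-seq. The main deposited file lists 13526 genes, and its TPM were computed by the authors. DESeq2, RSEM, HISAT2 2.0.5 and fastp are listed in the submitters' processing notes with no roles (genome build not given in the sources used here). A shorter list of 181 genes repeats the same TPM and was left out, as were the authors' columns of fold changes, p-values and FDR.

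The OM plus EMPA and OM groups were tested against each other by limma on log2(TPM + 1), filtered at a mean of 1 TPM, with a variance trend, 4 residual and 3.8 prior degrees of freedom, and Benjamini-Hochberg adjustment over all 12564 genes tested. The threshold, an adjusted p of 0.05, is that of the paper. The members, lists and tests were chosen with earlier results of these data known. Named genes were all members, up to 6 called genes of each list by p, and the 5 nearest profiles to Gjb2 and Gja1. Alternatives were a pseudocount of 0.1, other filters, median-ratio scaling, TPM without mitochondrial genes, a replicate block, an adjusted p of 0.01 and each library left out. 1 connexin and some genes of the other lists enter the counts and sums but are not reported here. The pipeline was tested on simulated data. Promoter windows came from RefSeq (GRCr8). R 4.3.3, limma 3.58.1, Python 3.11.15, pandas 2.3.3, numpy 2.4.6 and matplotlib 3.10.9 were used.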

Additional observations from a re-analysis of the deposited data

How the results depend on the processing

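The call of Gja4 held under every alternative run. Among the 7 members besides Gja1 and Gjb2, Gja4 stayed the 1 gene called lower, and 0 were called higher. The difference of Gja1 turned positive with median-ratio scaling (0.041) and without mitochondrial genes (0.012). TPM keep no depth, so limits by depth cannot be given, and the fold change of Gjb5, near 1 TPM, is uncertain.

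Over all tested genes 259 were called higher and 611 lower. The counts were 449 and 951 with the replicate block, 394 and 380 with median-ratio scaling, 35 and 159 at an adjusted p of 0.01, and 80 to 216 and 245 to 438 with 1 library left out, where fewer samples enter the fit. Median-ratio scaling moved the median difference of all genes to 0.00, against -0.05. Genes called lower in the scaffold list were 0 with median-ratio scaling, 0 at an adjusted p of 0.01 and 0 to 1 with 1 library left out, and its 1 higher gene was lost at 0.01 (0). In the trafficking list they were 2 with the replicate block, 0 at 0.01 and 0 to 1 with 1 library left out. In the kinase list they were 0 with median-ratio scaling, without mitochondrial genes, at 0.01 and with any 1 library left out. In the ATP release list they were 2 with no filter, 2 with at least 1 TPM in each library, 3 with the replicate block (and 1 higher) and 1 to 2 with 1 library left out. In the KEGG list they were 1 with median-ratio scaling, 2 without mitochondrial genes, 0 at 0.01 and 0 to 3 with 1 library left out, and 2 were higher with the replicate block. The cause of these changes was not tested. With 1 library left out the Gjb2 difference was 1.04 to 1.19 and that of Gja1 -0.04 to -0.00, which is a description only, since both genes were selected on these values.

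Samples share a replicate number only. Deviations from the group means of same-numbered libraries correlated at 0.0979, 0.162 and 0.0575, and each library correlated best with its own number, so the block is a hint from the data and not from the design.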
